A study of Rattus norvegicus with 9 samples.

Results

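The genes described here are the chemokines and chemokine receptors of the rat, measured in the infarcted hemisphere at day 14 after the middle cerebral artery had been occluded for 2 h. They were taken as the genes whose name on the array was Ccl, Ccr, Cxcl or Cxcr with a number, or Cx3cl1, Xcl1 or Xcr1. This gave 53 genes of the 26276 different gene names on the array, of which 34 were ligands and 19 were receptors. A total of 6 of them (Ccl20, Ccl6, Cxcl12, Cxcl3, Xcl1, and Xcr1) had several probes, and the probe with the highest mean signal over the 9 arrays stood for the gene. The rule used names and brightness, not the comparison of groups, although the members were chosen with earlier results of these data known. A gene was tested if some group had its probe well above background in all 3 rats, which held for 41 of the 53, 29 ligands and 12 receptors. The remaining 12 (Ccl1, Ccl25, Ccl26, Ccl28, Ccr2, Ccr3, Ccr4, Cxcl5, Cxcr2, Cxcr5, Cxcr6, and Xcr1) were not tested.

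Chemokines are small secreted proteins that guide leukocytes along gradients. They are grouped by the spacing of their first cysteines into the CC, CXC, CX3C, and XC families, and they act on G protein-coupled receptors named after the same families. Many ligands share receptors, and many receptors bind several ligands. In the healthy brain, Cx3cl1 is made mainly by neurons and its receptor Cx3cr1 is carried by microglia, while many of the inflammatory ligands are known to be made by activated microglia, macrophages, astrocytes, and endothelial cells after injury.

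Gene expression was measured on 9 one-color Agilent rat arrays, 1 array per rat, with 3 male Sprague-Dawley rats in each of 3 groups. In Sham rats the external carotid artery was isolated without a filament, and solvent was injected into the tail vein. The I/R rats underwent the 2 h occlusion with a nylon filament followed by reperfusion. The DHI rats underwent the same surgery and then received Danhong injection, a preparation of Salvia miltiorrhiza and Carthamus tinctorius, into the tail vein daily for 14 days. The dose of the array animals is given in grams per kilogram in one place of the study's methods and in milliliters per kilogram in another. A neurological score decided which rats counted as successfully modeled for I/R injury. Whether this applied to every operated group is not stated, and the scores of the array rats are not given. The hemisphere was measured as bulk tissue, in which fewer cells of a type and less RNA per cell cannot be told apart. Throughout, a level is the log2 intensity of a probe minus the log2 of the 75th percentile of its array, so that 0 is the 75th percentile and -5 lies 5 doublings below it. Levels of different probes are not compared. A gene was called when limma's unadjusted p was under 0.05 and the fold change was over 1.5, the thresholds given in the study's methods. The Benjamini-Hochberg adjusted p over all 23747 probes tested is given beside it.

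The arrays of a group did not all behave alike. Their 75th percentiles lay between 1816.3 (DHI 2) and 3464.4 (I/R 3) in intensity units, and each had 75.2% to 78.9% of its probes well above background. The Sham and I/R arrays lay on 1 slide and the DHI arrays on another, so the slide cannot be told apart from the DHI treatment, while I/R versus Sham lay within a slide. The 3 DHI rats also differed from each other. Of the 29 chemokine genes called in I/R versus Sham, the array DHI 1 was nearer to the I/R mean for 27, whereas DHI 2 and DHI 3 were each nearer to it for 1. Over the 10234 probes called in that comparison and without missing values, the shares were 96.1%, 4.35%, and 10.1%, so the split was not particular to chemokines. DHI 1 thus lay with the I/R arrays and not with the other arrays of its label. A rat that differed and an exchanged sample cannot be told apart from the labels, and every DHI mean, fold change, and call below includes this array unless it is named as left out. For the genes described array by array, the 3 DHI arrays are given separately.

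In I/R versus Sham, 24 of 41 tested genes were called higher, against 20.8% of all probes, and 5 were called lower, against 22.3% of all probes. The median log2 fold change was 1.99 over the 41 genes, 2.12 over the ligands, and 1.13 over the receptors, and it was -0.10 over all probes. The 4 genes that were below background throughout a group leave the median at 1.99 when set to their bounds. The filter favors genes that are high in one group. A total of 8 genes (Ccl20, Ccr1, Cxcl1, Cxcl11, Cxcl2, Cxcl3, Cxcl9, and Cxcr1) were tested only because all I/R arrays were well above background, and 6 of them are among the 24. On probes well above background on all 9 arrays, 13 of 26 chemokine genes were called higher and 4 lower, where 42.7% of all such probes were called in either direction. The largest differences were those of Cxcl17 (log2 fold change 6.90 ± 1.59, SE, n = 3 per group), Cxcl10 (6.14 ± 1.34), and Ccl3 (5.86 ± 1.34). With an adjusted p under 0.05 in limma, 19 genes were higher and 5 were lower, where all probes gave 16.7% and 15.8%. The smallest adjusted p of a chemokine gene was 0.0396. This adjusted count fell from 24 to 0 when any single Sham array, I/R 1, I/R 2, or DHI 3 was left out, while 24 to 33 genes passed the study's thresholds when an array was left out (31.7% to 48.6% of all probes). The adjusted count was 32 without DHI 1 and 30 in a model of the Sham and I/R arrays alone. That model called 27 genes higher and 6 lower at the study's thresholds, where 45.5% of all probes were called in either direction. The 3 I/R arrays lay above all Sham arrays for 28 genes and below them for 7, and the shares over all probes were 26.7% and 35.8%.

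**Figure D1:**
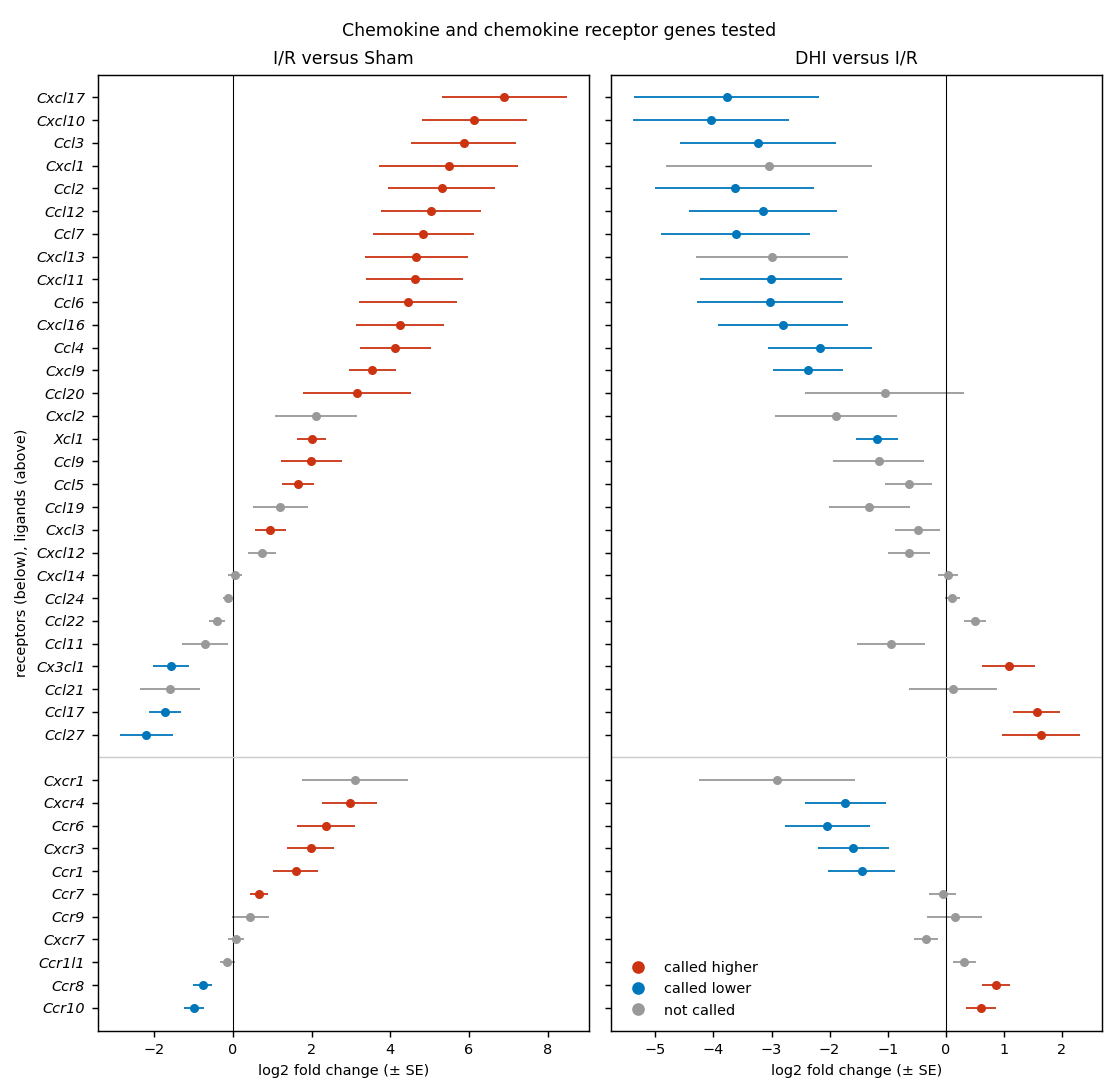
Log2 fold change with its standard error (x axis) for 40 of the 41 tested genes (y axis, 29 ligands above and 11 receptors below, ordered by I/R versus Sham), on the left for I/R versus Sham and on the right for DHI versus I/R, with 3 arrays per group. Red points were called higher, blue points lower, and gray points were not called. On the left 23 points are red and 5 blue, and on the right 5 are red and 16 blue.

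The ligands that attract monocytes, Ccl2, Ccl7, Ccl12, Ccl6, and Ccl9, were all called higher in I/R, 5 of 5. Ccl2, the main ligand of Ccr2 on monocytes, lay at -5.84, -4.98, and -5.50 on the Sham arrays, 0.38, 0.26, and -1.04 on the I/R arrays, and -0.14, -6.21, and -4.95 on the DHI arrays. The probe lies at chr10:70257919-70257978 in the rn4 build of the files. All I/R arrays stood above all Sham arrays, DHI 1 stood among the I/R arrays, and DHI 2 and DHI 3 stood near Sham. The log2 fold change in I/R versus Sham was 5.30 ± 1.36 (39.5-fold, adjusted p = 0.0396).

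Ccl7, another Ccr2 ligand, lay at -7.61, -7.12, and -7.61 on the Sham arrays, -1.63, -2.27, and -3.93 on the I/R arrays, and -3.0, -8.51, and -7.17 on the DHI arrays, a log2 fold change of 4.84 ± 1.28. Ccl12, a rodent ligand of Ccr2, lay at -7.25, -7.29, and -7.36 on the Sham arrays, -2.23, -1.55, and -3.03 on the I/R arrays, and -1.93, -7.23, and -7.08 on the DHI arrays, a log2 fold change of 5.03 ± 1.27. Its 3 Sham arrays spanned -7.36 to -7.25, so the I/R rise was many times the spread of the Sham rats. Ccl6, a rodent ligand of Ccr1, lay at -3.87, -4.80, and -4.33 on the Sham arrays, 0.77, 0.51, and -0.93 on the I/R arrays, and 0.39, -4.74, and -4.39 on the DHI arrays, a log2 fold change of 4.45 ± 1.25. Its second probe gave 4.56, close to this value. Ccl9, also a Ccr1 ligand, lay at -5.43, -5.21, and -5.28 on the Sham arrays, -2.78, -3.07, and -4.10 on the I/R arrays, and -2.45, -5.42, and -5.56 on the DHI arrays. Its log2 fold change was smaller, 1.99 ± 0.78 (adjusted p = 0.0764), and the call was lost when Sham 1, Sham 2, Sham 3, I/R 1, or I/R 2 was left out, with quantile normalization, and with the authors' table. I/R 3 was the lowest of the I/R arrays for these 5 ligands.

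The receptor Ccr2, by contrast, was hardly measurable in this bulk tissue. It lay at -9.96, -9.99, and -9.71 on the Sham arrays, -7.62, -8.80, and -8.72 on the I/R arrays, and -7.68, -9.29, and -9.47 on the DHI arrays, and it was well above background on 1 array, DHI 1, so it has no tested fold change.

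Ccl3, Ccl4, and Ccl5, inflammatory attractants of macrophages and T cells, were called higher in I/R, 3 of 3. Ccl3 lay at -5.43, -5.74, and -5.62 on the Sham arrays, 0.39, 0.65, and -0.24 on the I/R arrays, and 0.73, -5.27, and -4.38 on the DHI arrays, a log2 fold change of 5.86 ± 1.34 (58.1-fold, adjusted p = 0.0396). Ccl4 lay at -7.06, -6.97, and -6.93 on the Sham arrays, -3.17, -2.50, and -2.92 on the I/R arrays, and -2.55, -6.47, and -6.05 on the DHI arrays, a log2 fold change of 4.13 ± 0.90 (adjusted p = 0.0396). For both, the I/R arrays stood about 4 to 6 log2 units above Sham, DHI 1 was as high as I/R, and DHI 2 and DHI 3 lay slightly above every Sham array. Ccl5, known as a product of activated T cells, lay at -3.75, -3.63, and -3.54 on the Sham arrays, -1.75, -2.13, and -2.12 on the I/R arrays, and -1.60, -3.37, and -2.93 on the DHI arrays. Its rise was smaller, 1.64 ± 0.41 (adjusted p = 0.0396), and all 3 DHI arrays stood above Sham.

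Ccr1, a receptor of monocytes and neutrophils that binds Ccl3 and Ccl5, lay at -7.67, -8.61, and -9.62 on the Sham arrays, -7.13, -7.09, and -6.90 on the I/R arrays, and -7.39, -8.79, and -9.28 on the DHI arrays, and its Sham arrays were well above background on 1 of 3. Its log2 fold change of 1.59 ± 0.58 (adjusted p = 0.0632) shrank to 0.16 with normexp background correction and was not called there. The call was also lost when Sham 2, Sham 3, or any of the 3 I/R arrays was left out. The related gene Ccr1l1 did not pass the test (-0.15 ± 0.19).

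Cxcl9, Cxcl10, and Cxcl11 are the interferon-inducible ligands of Cxcr3, a receptor of activated T cells. All 3 were called higher in I/R. The 250 bases before the start of Cxcl10 and Cxcl11 are shown with those of Cxcl1, a neutrophil attractant (RefSeq, GRCr8 build, strand of the gene, 5′ to 3′). Cxcl9 is not shown, and it is in neither list of genes with a motif match given below. Capitals mark matches to GGANTTTCC, a kappa B core, and to AAANNGAAA, an interferon response core, both searched on both strands, and no match overlapped another in these stretches. The Cxcl10 stretch is chr14:15988816-15989065 (+), the Cxcl11 stretch is chr14:15973478-15973727 (+), and the Cxcl1 stretch is chr14:17479322-17479571 (-).
Cxcl10: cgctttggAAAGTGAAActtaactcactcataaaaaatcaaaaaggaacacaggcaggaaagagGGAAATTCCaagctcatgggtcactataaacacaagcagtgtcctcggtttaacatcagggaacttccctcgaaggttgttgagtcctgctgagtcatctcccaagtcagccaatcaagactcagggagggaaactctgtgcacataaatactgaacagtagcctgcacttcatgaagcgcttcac
Cxcl11: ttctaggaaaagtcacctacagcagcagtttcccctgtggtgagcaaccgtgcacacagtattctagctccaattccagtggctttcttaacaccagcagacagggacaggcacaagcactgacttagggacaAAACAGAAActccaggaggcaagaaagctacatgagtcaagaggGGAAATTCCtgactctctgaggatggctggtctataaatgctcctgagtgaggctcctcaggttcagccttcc
Cxcl1: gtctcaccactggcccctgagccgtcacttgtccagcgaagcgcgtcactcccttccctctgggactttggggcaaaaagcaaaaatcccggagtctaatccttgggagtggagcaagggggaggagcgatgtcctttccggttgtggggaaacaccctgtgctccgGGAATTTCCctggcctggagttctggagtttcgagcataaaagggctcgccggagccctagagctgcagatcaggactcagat
The kappa B core lies 186 to 178 bases before the start of Cxcl10, 73 to 65 before Cxcl11, and 83 to 75 before Cxcl1. The interferon core lies 242 to 234 bases before Cxcl10 and 117 to 109 before Cxcl11. RefSeq promoters were matched for 40 of the 53 genes, and 5 of these held the kappa B core (Ccr3, Cxcl1, Cxcl10, Cxcl11, and Cxcl5), against 1.08% of all 33469 promoters. The interferon core was in 7 of 40 (Ccl19, Ccl7, Cxcl10, Cxcl11, Cxcl16, Cxcr1, and Xcl1), against 10.3% of all. These matches are a description of letters, with no measurement of binding.

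Cxcl10 lay at -5.97, -5.04, and -4.59 on the Sham arrays, 1.18, 1.55, and 0.08 on the I/R arrays, and 0.48, -5.10, and -4.67 on the DHI arrays. The probe lies at chr14:17267994-17268053 (rn4). Its log2 fold change in I/R versus Sham was 6.14 ± 1.34 (70.5-fold, adjusted p = 0.0396), and the nearest I/R and Sham arrays were separated by more than 4 log2 units. Cxcl11 lay at -7.67, -7.34, and -8.61 on the Sham arrays, -3.54, -2.68, and -3.54 on the I/R arrays, and -2.93, -7.89, and -7.96 on the DHI arrays, a log2 fold change of 4.62 ± 1.23 (adjusted p = 0.04). Cxcl9 lay at -8.12, -8.30, and -8.75 on the Sham arrays, -5.16, -4.86, and -4.52 on the I/R arrays, and -5.64, -8.11, and -7.91 on the DHI arrays and was well above background on 0 of 3 Sham arrays. Cxcl9 was at least 11.6-fold higher in I/R (adjusted p = 0.0396), where the bound sets the Sham arrays to the higher of their own signal and the lowest signal measured above background. Unlike Cxcl10, Cxcl9 was highest in I/R 3 among the I/R rats. Cxcl10 and Cxcl11 overlap the gene Art3 in RefSeq.

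The receptor Cxcr3 lay at -7.23, -7.50, and -7.65 on the Sham arrays, -5.13, -5.56, and -5.77 on the I/R arrays, and -5.49, -7.59, and -8.14 on the DHI arrays. It was called higher in I/R, with a log2 fold change of 1.97 ± 0.60 (adjusted p = 0.0436), and lost the call with normexp background correction alone among the settings tried. It was well above background on 1 DHI array. Ligands and receptor thus both stood higher in all 3 I/R rats and in DHI 1.

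Cxcl1, Cxcl2, Cxcl3, and Cxcl5 act on Cxcr2 and attract neutrophils. Cxcl1 lay at -8.47, -7.95, and -8.46 on the Sham arrays, -3.58, -2.50, and -2.35 on the I/R arrays, and -0.96, -8.74, and -7.88 on the DHI arrays and was not well above background on any Sham array. It was at least 44.8-fold higher in I/R (adjusted p = 0.0478), and its highest level was in DHI 1. Cxcl3 was called with a small log2 fold change of 0.95 ± 0.39 (adjusted p = 0.0851), lying at -7.12, -7.92, and -6.98 on the Sham arrays, -6.53, -6.24, and -6.41 on the I/R arrays, and -6.10, -7.56, and -6.96 on the DHI arrays. That call was lost when Sham 1, Sham 2, DHI 3, or any of the 3 I/R arrays was left out, with quantile normalization, normexp, the authors' table, and the mean of its probes, and its second probe was well above background on 0 of the 6 Sham and I/R arrays. Cxcl2 gave 2.12 ± 1.05 (adjusted p = 0.135) and did not pass, although all I/R arrays lay above all Sham arrays. Its SE draws on all 9 arrays, so the spread of the DHI rats enters this test. That spread was the widest for Cxcl2 (SD 2.47, against 0.58 for Sham and 0.13 for I/R). Cxcl5, for which RefSeq gives the symbol Cxcl6, was measurable in DHI 1 alone (-5.97).

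The neutrophil receptor Cxcr2 was not tested, since it was well above background on at most 2 arrays of a group. It lay at -7.60, -7.61, and -7.15 on the Sham arrays, -7.42, -8.00, and -8.49 on the I/R arrays, and -8.10, -7.98, and -7.82 on the DHI arrays. Cxcr1 gave a log2 fold change of 3.10 ± 1.35 (adjusted p = 0.0995, unadjusted p = 0.0507), with Sham arrays from -9.98 to -5.80, and did not pass.

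Cxcl13, the ligand that draws B cells through Cxcr5, lay at -5.64, -6.30, and -7.52 on the Sham arrays, -1.32, -1.38, and -2.78 on the I/R arrays, and -1.47, -7.01, and -5.98 on the DHI arrays. It was called higher in I/R (4.66 ± 1.31, 25.3-fold, adjusted p = 0.0405). Cxcr5 lay at -8.38, -8.94, and -8.56 on the Sham arrays, -8.92, -8.66, and -8.89 on the I/R arrays, and -8.79, -8.32, and -7.49 on the DHI arrays and was well above background on DHI 3 alone. Of the B and plasma cell markers, 2 of 5 on the array were tested and 0 were called in I/R versus Sham by limma, the same count as at an unadjusted p under 0.05. Cd79b, a B cell receptor component that was not tested, lay at -9.90, -9.99, and -9.31 on the Sham arrays, -4.78, -6.70, and -7.95 on the I/R arrays, and -6.05, -8.66, and -9.43 on the DHI arrays. It was well above background on 0 of 3 Sham arrays, 2 of 3 I/R arrays, and 1 DHI array, which puts the I/R mean at least 5.12-fold above Sham.

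Ccl20, the ligand of Ccr6, lay at -9.71, -9.43, and -9.67 on the Sham arrays, -6.43, -5.66, and -7.27 on the I/R arrays, and -3.78, -9.28, and -9.46 on the DHI arrays, with 0 of 3 Sham arrays well above background. It was called higher, by at least 5.2-fold (adjusted p = 0.0984), but the call was lost when any single Sham or I/R array was left out, with quantile normalization, normexp, the authors' table, and the mean of its probes. The level in DHI 1 was above that of all I/R arrays. Ccr6, carried by lymphocytes and dendritic cells, lay at -7.19, -6.37, and -7.19 on the Sham arrays, -3.95, -4.81, and -4.90 on the I/R arrays, and -4.88, -8.09, and -6.81 on the DHI arrays, a log2 fold change of 2.36 ± 0.73 (adjusted p = 0.0442).

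Ccl19, a ligand of Ccr7 in lymphoid tissue, lay at 0.08, -0.80, and -0.95 on the Sham arrays, 0.88, 0.43, and 0.61 on the I/R arrays, and 1.05, -1.05, and -2.03 on the DHI arrays. All I/R arrays were above all Sham arrays, but the difference of 1.20 ± 0.70 did not pass (adjusted p = 0.194). As for Cxcl2, the DHI rats spread most (SD 1.57, against 0.56 for Sham and 0.23 for I/R), and this enters the SE. Ccr7, carried by naive T cells and mature dendritic cells, lay at -6.77, -6.85, and -7.09 on the Sham arrays, -6.38, -5.79, and -6.56 on the I/R arrays, and -6.51, -6.30, and -6.08 on the DHI arrays. It was called with the smallest rise of the 24 genes, 0.66 ± 0.23 (adjusted p = 0.0572), and lost the call without Sham 3 or I/R 2, with quantile normalization, with normexp, with the authors' table, and with the methods' t-test. Ccl21, the other Ccr7 ligand, gave -1.61 ± 0.76 and did not pass, with 1 of 3 I/R arrays well above background.

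**Figure D2:**
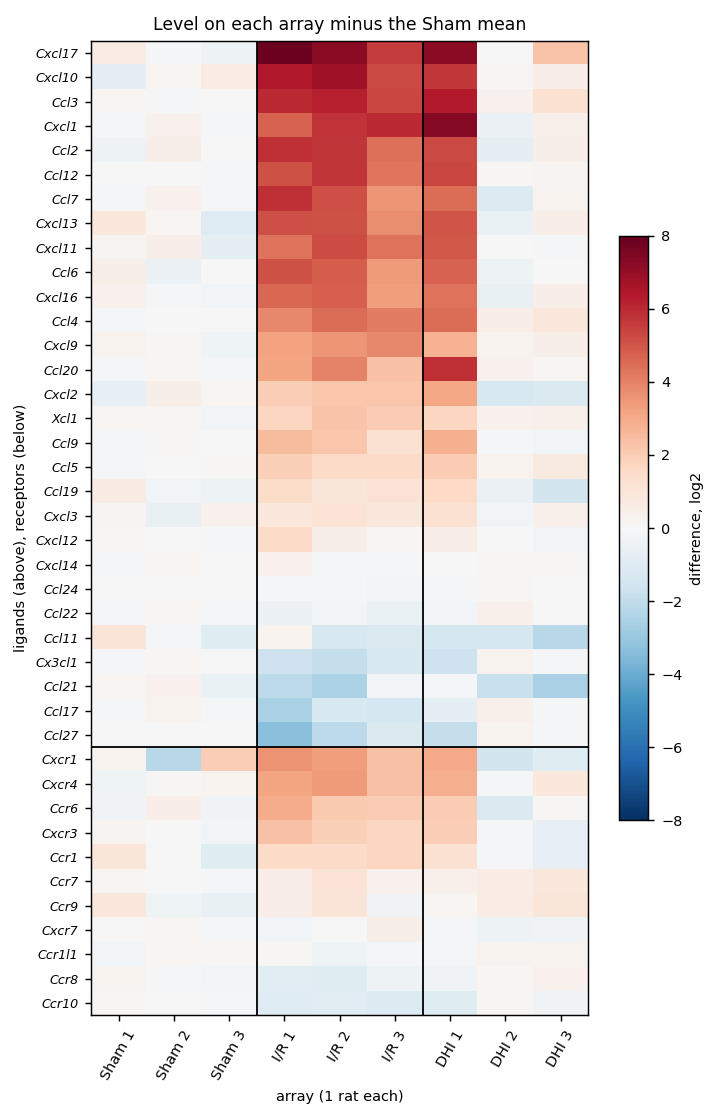
Level of 40 of the 41 tested genes (rows, ligands above and receptors below) on each array (columns, 3 per group) minus the mean of that gene's 3 Sham arrays, in log2 units, red for higher and blue for lower. The I/R arrays and DHI 1 share the red rows from Cxcl17 to Ccl5 and from Cxcr4 to Ccr1, while DHI 2 and DHI 3 resemble the Sham arrays.

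Other ligands included the largest change of all. Cxcl17, known from mucosal tissue as an attractant of myeloid cells, lay at -5.93, -6.63, and -6.93 on the Sham arrays, 1.37, 0.74, and -0.89 on the I/R arrays, and 0.65, -6.51, and -4.24 on the DHI arrays. The probe lies at chr1:80683134-80683193 (rn4). Its log2 fold change in I/R versus Sham was 6.90 ± 1.59 (120-fold, adjusted p = 0.0396), and DHI 3 stood above all Sham arrays and below all I/R arrays. Cxcl16, a transmembrane ligand and scavenger receptor of macrophages, lay at -1.62, -2.01, and -2.19 on the Sham arrays, 2.68, 2.82, and 1.41 on the I/R arrays, and 2.42, -2.52, and -1.43 on the DHI arrays, a log2 fold change of 4.24 ± 1.12 (18.9-fold, adjusted p = 0.04). Its receptor Cxcr6 was not tested and lay at -9.89, -8.26, and -8.79 on the Sham arrays, -7.01, -8.53, and -7.44 on the I/R arrays, and -7.38, -8.52, and -9.47 on the DHI arrays, well above background on 2 I/R arrays and 1 DHI array. Xcl1, a product of T and NK cells, lay at -6.16, -6.20, and -6.54 on the Sham arrays, -4.60, -4.03, and -4.27 on the I/R arrays, and -4.61, -5.95, and -5.90 on the DHI arrays, a log2 fold change of 2.00 ± 0.36 (adjusted p = 0.0396), and its second probe, well above background on 0 of 3 Sham arrays, was at least 10.7-fold higher. Its receptor Xcr1 was well above background on 1 array, I/R 1.

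Cxcl12 gave different answers from its 2 probes. The probe with the higher mean signal lay at 1.10, 0.92, and 0.85 on the Sham arrays, 2.50, 1.42, and 1.14 on the I/R arrays, and 1.5, 0.92, and 0.73 on the DHI arrays, and its difference of 0.73 ± 0.36 did not pass (adjusted p = 0.135). The other probe lay at 0.21, -0.04, and 0.10 on the Sham arrays, 2.96, 2.37, and 2.20 on the I/R arrays, and 2.41, 0.29, and 0.01 on the DHI arrays, a log2 fold change of 2.42 that was called higher. Both had all I/R arrays above all Sham arrays, so the probes differ in the size of the difference and not in its direction. The receptor Cxcr4 lay at -5.59, -5.11, and -4.97 on the Sham arrays, -2.08, -1.83, and -2.87 on the I/R arrays, and -2.29, -5.31, and -4.38 on the DHI arrays. Its log2 fold change was 2.96 ± 0.69 (7.79-fold, adjusted p = 0.0396). Cxcr7, the scavenging receptor of Cxcl12 that RefSeq names Ackr3, gave 0.08 ± 0.21 and did not pass.

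**Figure D3:**
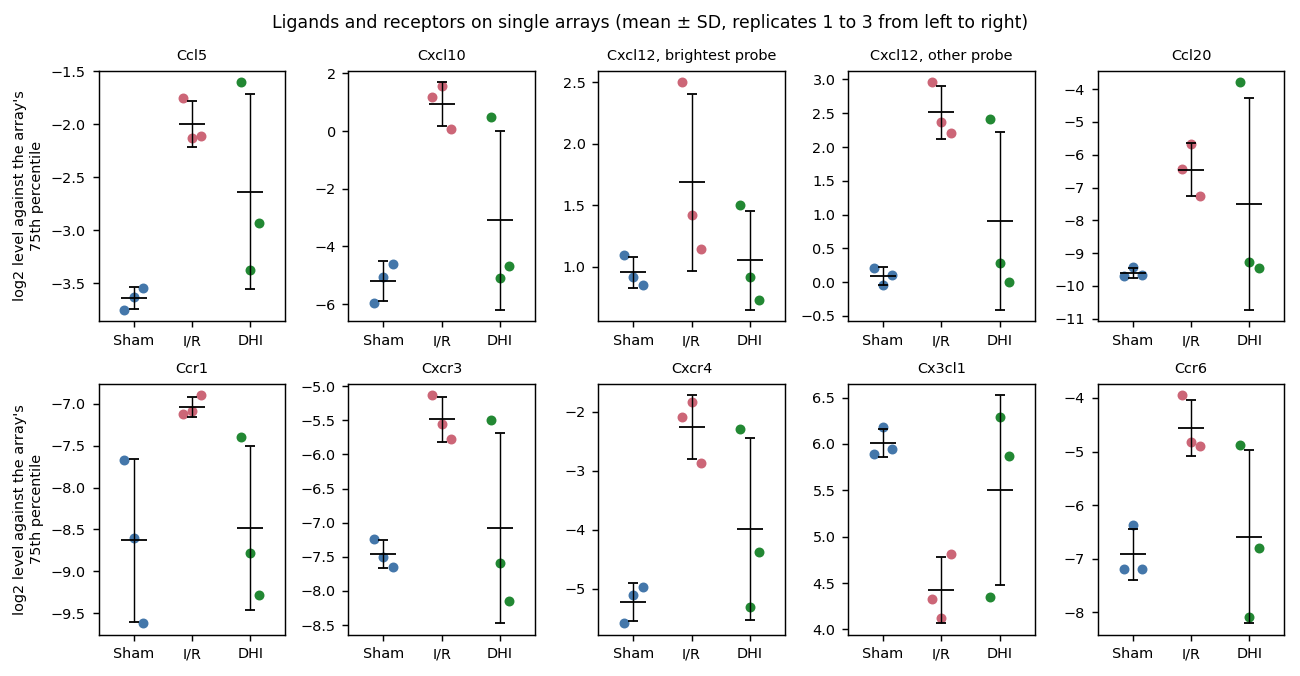
Levels on single arrays (points, y axis in log2 units against the array's 75th percentile) with the mean and SD of 3 arrays (black) for Sham, I/R, and DHI, in ligands and receptors. The 2 panels of Cxcl12 show its 2 probes, whose log2 fold changes in I/R versus Sham were 0.73 and 2.42. Ccl20 was below background on all Sham arrays. In the Cxcl10, Ccl20, and Cxcl12 panels and in Cxcr3, Cxcr4, Ccr6, and Ccr1, DHI 1 lies apart from DHI 2 and DHI 3, and Cx3cl1 shows the split in the opposite direction.

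The genes called lower in I/R were Ccl17, Ccl27, Cx3cl1, Ccr8, and Ccr10. Cx3cl1, the membrane-bound ligand of neurons, lay at 5.89, 6.19, and 5.95 on the Sham arrays, 4.33, 4.12, and 4.82 on the I/R arrays, and 4.35, 6.29, and 5.87 on the DHI arrays. The I/R arrays were below all Sham arrays, and the log2 fold change was -1.59 ± 0.46 (adjusted p = 0.0413). The probe lies at chr19:10667029-10667088 (rn4). Its receptor Cx3cr1, which is not among the 53 genes, gave -1.0 ± 0.52 and did not pass, while the other 7 microglia markers tested were called higher. All 6 neuron markers tested (Rbfox3, Syt1, Snap25, Tubb3, Stmn2, and Map2) were called lower, and their summed level was 56.0 to 65.3 in Sham and 6.02 to 29.7 in I/R, where 1 is the 75th percentile of the array. The part of neurons in the fall of Cx3cl1 was not tested.

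Ccl27, known as a skin ligand of Ccr10, lay at 2.17, 2.19, and 2.12 on the Sham arrays, -1.18, 0.05, and 0.99 on the I/R arrays, and 0.24, 2.45, and 2.09 on the DHI arrays, a log2 fold change of -2.21 ± 0.67 (adjusted p = 0.0429). Its gene overlaps Il11ra1 in RefSeq, and the probe of Il11ra1 gave 0.44 and was not called. Ccr10 lay at -4.62, -4.69, and -4.76 on the Sham arrays, -5.74, -5.55, and -5.76 on the I/R arrays, and -5.69, -4.61, and -4.95 on the DHI arrays, a log2 fold change of -1.0 ± 0.26 (adjusted p = 0.0396), and lost the call with normexp background correction. Ccr10 overlaps Cntnap1 in RefSeq.

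Ccl17, a ligand of Ccr4 and Ccr8, lay at -3.87, -3.41, and -3.85 on the Sham arrays, -6.28, -4.93, and -5.08 on the I/R arrays, and -4.43, -3.31, and -3.87 on the DHI arrays, a log2 fold change of -1.72 ± 0.41 (adjusted p = 0.0396). Ccr8 lay at -7.41, -7.76, and -7.89 on the Sham arrays, -8.57, -8.68, and -8.11 on the I/R arrays, and -7.98, -7.51, and -7.32 on the DHI arrays, with 0 of 3 I/R arrays well above background, and was at least 1.63-fold lower in I/R (adjusted p = 0.0453). The Ccr8 call was lost without scaling, with normexp background correction, and without Sham 1. For both genes DHI 1 stood between the groups, and Ccr4 was never well above background.

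The remaining tested genes did not pass. Ccl11, an eosinophil attractant, gave -0.72 ± 0.59, Ccl22 -0.41 ± 0.20, and Ccr9 0.44 ± 0.47. Cxcl14 (0.04 ± 0.18) and Ccl24 (-0.13 ± 0.13) stayed close to their Sham levels, and their 9 arrays spanned 3.89 to 4.39 and 2.84 to 3.11. Of the genes not tested, Ccl25, Ccl26, Ccl28, and Ccr4 were not well above background on any array, Ccr3 was on 2 I/R arrays and DHI 1, and Ccl1 on 4 of 9 arrays spread over the groups.

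Other genes of the chemokine pathway (signaling proteins, decoy receptors, a protease, and cytokines) were read from a list of 46, of which 40 were on the array and 38 were tested. In the I/R rats 25 of 38 of them were called higher than in Sham, against 20.8% of all probes, and 3 lower, against 22.3%, with a median log2 fold change of 1.41 against -0.10 over all probes. They included Vav1 (4.94 ± 1.04) and Rac2 (4.63 ± 0.94), which act on the cytoskeleton of blood cells, Plcb2 (3.87 ± 0.72), a phospholipase of G protein signaling, and Nfkb1 (1.8 ± 0.45), a transcription factor of inflammation. Rgs1, which dampens chemokine receptor signaling in leukocytes, rose by 4.42 ± 0.90. The 3 called lower were Ccbp2, a decoy receptor of CC ligands (-1.19 ± 0.35), Elmo1 (-0.75 ± 0.24), and Dpp4 (-1.39 ± 0.57), a protease that trims chemokines. Ifng was never well above background. The widely expressed Gnb1, Grk6, Arrb1, and Jak2 were among the 10 tested genes that did not pass.

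Markers of leukocytes and microglia moved with these results. All 10 monocyte and macrophage markers tested, Cd14, Cd68, Lyz2, Itgam, Csf1r, Aif1, Emr1, Cd163, Mrc1, and Fcgr1a, were called higher in I/R. Their summed level was 8.70 to 11.4 in Sham, 68.5 to 172 in I/R, and 9.55 to 114 in DHI, with DHI 1 highest of the DHI arrays. Of the microglia markers 7 of 8 were called higher (summed level 13.2 to 15.0 in Sham, 38.0 to 89.4 in I/R, and 17.1 to 53.0 in DHI). Of the T cell markers 6 of 9 were called higher (0.318 to 0.405 in Sham, 0.871 to 1.34 in I/R, and 0.391 to 1.04 in DHI), and of the neutrophil markers 4 of 6 (0.0899 to 0.126, 0.353 to 0.983, and 0.164 to 0.445), with Elane not above background on any array. I/R 3 had the lowest sums of these 4 lists among the I/R arrays. Astrocyte markers were mixed, with 4 of 6 called higher and 1 lower (median log2 fold change 0.75), and of the endothelial markers 2 of 7 were called higher and 0 lower (median 0.19). The part of these cells in the chemokine results was not tested.

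Choroid plexus markers showed another pattern. Their summed level was 0.470 to 1.02 in Sham, 1.30, 2.20, and 93.6 in I/R 1, 2, and 3, and 137, 7.51, and 74.3 in DHI 1, 2, and 3. Of the 4 tested, Folr1 was called higher in I/R versus Sham. DHI 3 was high in these sums and near Sham for most of the chemokine genes called in I/R versus Sham. Without I/R 3, the chemokine calls in I/R versus Sham were 22 higher and 6 lower, and 48.6% of all probes were called. Red blood cell markers, 3 of 3 called lower in I/R, had a summed level of 3.75 to 29.7 in Sham, 2.27 to 3.34 in I/R, and 7.33, 38.9, and 22.6 in DHI 1, 2, and 3. The part of either tissue in the chemokine results was not tested.

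**Figure D4:**
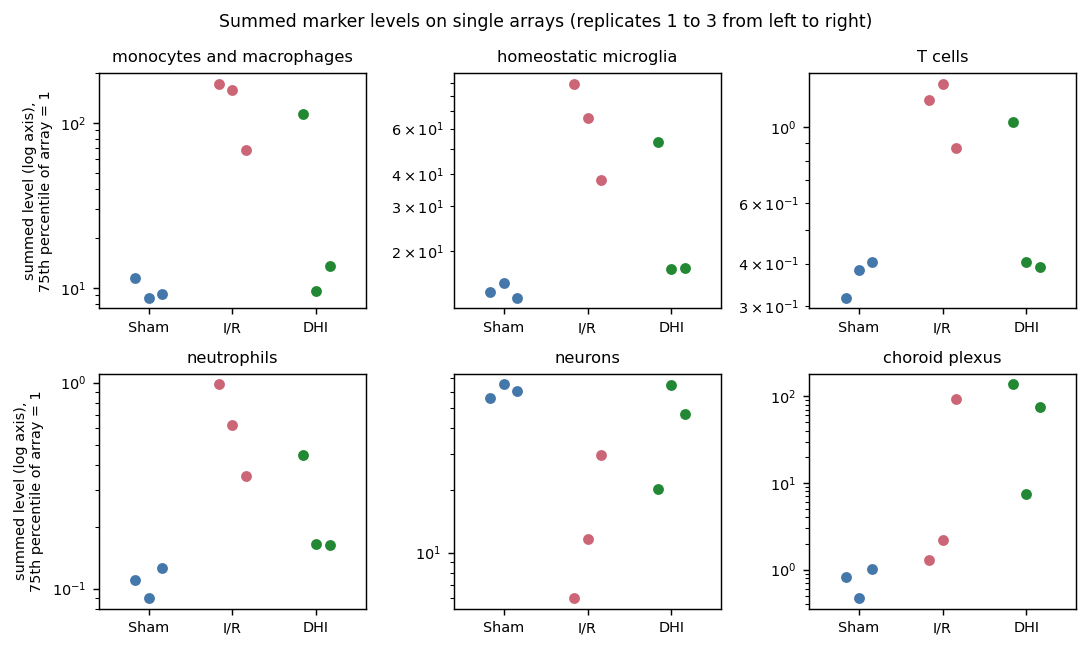
Summed level of the markers of 6 cell types on single arrays (points, logarithmic y axis, 1 is the 75th percentile of the array) in Sham, I/R, and DHI. The leukocyte and microglia sums are high in the I/R arrays and in DHI 1, the neuron sum is low in the same arrays, and the choroid plexus sum is high in I/R 3, DHI 1, and DHI 3.

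Danhong injection was compared with untreated ischemia-reperfusion on arrays of different slides. In DHI versus I/R, 17 of 41 tested genes were called lower, against 10.5% of all probes, and 5 were called higher, against 11.5% of all probes. The lower ones included Cxcl10 (log2 fold change -4.04 ± 1.34, adjusted p = 0.196, and -5.83 without DHI 1), Cxcl17 (-3.77 ± 1.59, -5.78 without it), Ccl2 (-3.64 ± 1.36, -5.45), Ccl7 (-3.62 ± 1.28, -5.23), and Ccl3 (-3.24 ± 1.34, -5.09). Among the receptors were Ccr6 (-2.04 ± 0.73, and -2.89 without DHI 1), Cxcr4 (-1.73 ± 0.69, -2.58), Cxcr3 (-1.59 ± 0.60, -2.38), and Ccr1 (-1.45 ± 0.58, -1.99). The Ccr1 difference turned to 0.24 with normexp background correction. The 5 called higher were Ccl27 (1.64 ± 0.67, and 2.32 without DHI 1), Ccl17 (1.56 ± 0.41, 1.84), Cx3cl1 (1.08 ± 0.46, 1.66), Ccr10 (0.60 ± 0.26, 0.90), and Ccr8, with at least a 1.73-fold rise, a bound since 0 of 3 I/R arrays were well above background. The calls of Ccr10 and Cx3cl1 were lost in 16 and 12 of 20 other settings. Those of Ccl3 and Ccl27 were lost in 10 of 20, Cxcl17 in 9, Cxcr4 in 8, Ccl2 in 6, and Cxcl10 in 4. Ccl7 and Ccr6 lost theirs in 5 of 19 settings, Cxcr3 in 7, and Ccr8 in 2. Ccr1 kept its call in 11 of 19. Among the other genes called lower, Ccl4 lost its call in 12 of 20 and Ccl12 and Cxcl11 in 11 of 19. Ccl6 and Cxcl16 lost theirs in 9 of 20, and Cxcl9 in 1 of 19. Without scaling between arrays the split was 22 lower and 1 higher, where 31.3% of all probes were called and their median was -0.36. The median log2 fold change was -1.32 over the 41 genes (-2.18 without DHI 1) and 0.10 over all probes. The filter bears on this comparison too, since Ccr1, Cxcl11, and Cxcl9, called lower here, were tested only through the I/R arrays. On probes well above background on all 9 arrays, 10 of 26 chemokine genes were called lower and 4 higher. Of all such probes, 21.6% were called in either direction. In the same comparison 7 of 10 monocyte and macrophage markers, 7 of 8 microglia markers, and 4 of 9 T cell markers were called lower, and 5 of 6 neuron markers and 3 of 3 red blood cell markers were called higher. The part of these cells in the chemokine differences was not tested.

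None of these differences passed the adjusted p in limma, where the smallest value of a chemokine gene was 0.196 (0 genes at an adjusted p under 0.05, 23 at an unadjusted p under 0.05, and 3 called by the methods' t-test, against 1.97% of all probes). The group means hide the split between the DHI rats. Without DHI 1, 26 genes were called lower and 6 higher, among them all 22 of the full comparison. The calls over all probes rose in the same setting from 21.9% to 45.2%. Without DHI 2, 2 genes were called lower and 2 higher, and without DHI 3 the counts were also 2 and 2, where 3.95% and 4.75% of all probes were called. Leaving out I/R 1 or I/R 2 left 5 and 6 calls (5.82% and 6.99% of all probes), and leaving out Sham 1, Sham 2, or Sham 3 left 12, 11, and 11 (16.5%, 16%, and 16%), since the Sham arrays enter the shared estimate of the spread. The 3 DHI arrays lay below all I/R arrays for 4 genes (against 4.03% of all probes) and above them for 3 (against 5.52%). The 4 were Ccl11, Ccr1, Cxcl9, and Xcl1, and the 3 were Ccl17, Ccl22, and Ccr8.

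Cxcl9 was lower in all 3 DHI rats than in any I/R rat, at -5.64, -8.11, and -7.91 against -5.16, -4.86, and -4.52 in I/R (-2.37 ± 0.60, adjusted p = 0.196), although its DHI arrays were well above background on 1 of 3 and the call was lost with normexp background correction. Xcl1 lay at -4.61, -5.95, and -5.90 against -4.60, -4.03, and -4.27 (-1.19 ± 0.36), with DHI 1 just below I/R 1, and its call was lost with normexp and with the methods' t-test. Ccl17 lay at -4.43, -3.31, and -3.87 against -6.28, -4.93, and -5.08 (1.56 ± 0.41, adjusted p = 0.196), and its call held in each of the 20 other settings in which it was tested. Ccl20 and Cxcl1 did not pass (-1.05 ± 1.37 and -3.05 ± 1.77), and for both the DHI 1 level exceeded every I/R array.

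On an axis where 0 is the Sham mean and 1 the I/R mean of a gene, the median position of the 29 genes called in I/R versus Sham was 1.00 for DHI 1, -0.07 for DHI 2, and 0.09 for DHI 3. Over all probes called it was 0.90, -0.01, and 0.16. For 26 of the 29 genes (89.7%) DHI 1 was nearer to I/R and both other rats nearer to Sham, a pattern shared by 85% of all probes called. The exceptions were Ccl17 and Ccr8, for which DHI 1 was nearer to Sham, and Ccr7, for which DHI 2 and DHI 3 were near I/R. These positions describe single arrays, on genes selected with the means that define the axis, and no test was made of them.

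**Figure D5:**
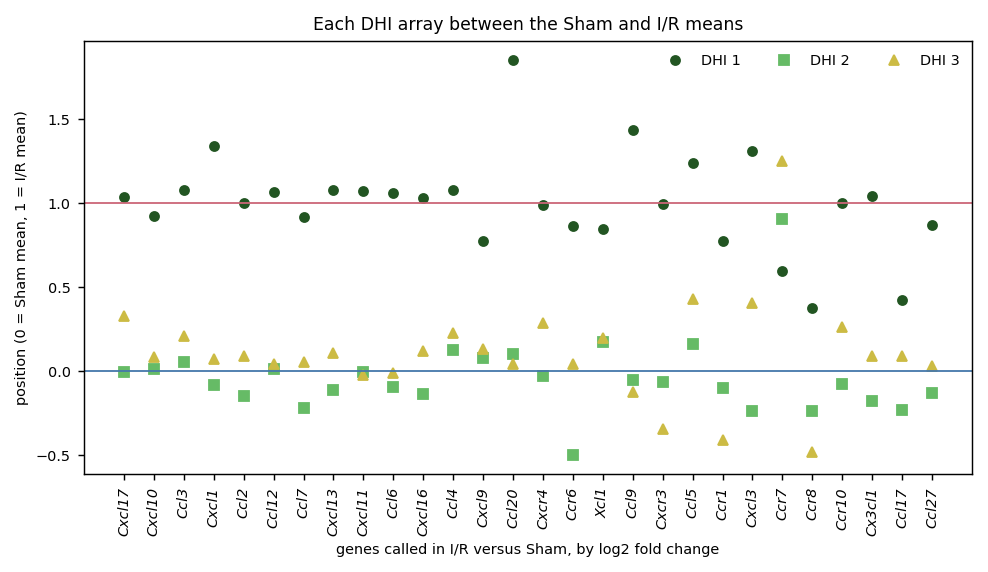
Position of DHI 1 (dark circles), DHI 2 (light squares), and DHI 3 (yellow triangles) between the Sham mean (0, blue line) and the I/R mean (1, red line) for 28 of the 29 genes called in I/R versus Sham (x axis, ordered by log2 fold change). DHI 1 lies around 1 and the other arrays around 0, except for Ccr7, Ccr8, and Ccl17.

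In DHI versus Sham, 2 of 41 genes were called higher (against 2.52% of all probes), Ccl5 (1.00 ± 0.41) and Ccr7 (0.61 ± 0.23), and 1 was called lower (against 1.06% of all probes), Ccl11 (-1.66 ± 0.59). In each the 3 DHI arrays did not overlap the Sham arrays. The same held for tested genes that were not called, Ccl3, Ccl4, Ccl12, Cxcl9, and Xcl1 (higher) and Cxcr7 (lower). The share of all probes without overlap was not computed for this comparison, so nothing particular to chemokines is read from it. Some gaps were small, as for Ccl12, with DHI 2 at -7.23 and Sham 1 at -7.25. Ccl11 lay at -3.62, -4.76, and -5.64 on the Sham arrays, -4.38, -5.98, and -5.81 on the I/R arrays, and -6.05, -6.10, and -6.86 on the DHI arrays. All DHI arrays stood below both other groups, though its difference in DHI versus I/R did not pass (-0.94 ± 0.59). The adjusted p in limma was 0.709 for each of these 3 called genes, the smallest in this comparison for any probe (0 genes at an adjusted p under 0.05, 3 at an unadjusted p under 0.05, and 1 called by the methods' t-test, against 1.89% of all probes). The Ccl5 call was lost in 11 of 20 other settings (without DHI 1, any Sham array, I/R 2, or I/R 3, with quantile normalization, without scaling, with the authors' table, in the model of only the groups compared, and with the methods' t-test). The Ccr7 call was lost in 8 of 20 (without Sham 2, Sham 3, DHI 2, or DHI 3, with quantile normalization, without scaling, with normexp, and with the authors' table). The Ccl11 call was lost in 4 of 20 (without Sham 1 or DHI 3, with normexp, and with the methods' t-test). The count was 6 without DHI 1, 11 without DHI 2, 1 without Sham 2, and 1 without Sham 3, where 3.5%, 10.6%, 1.45%, and 2.35% of all probes were called. The median log2 fold change of the 41 genes was 0.59 (0.07 without DHI 1), and over all probes it was 0.02.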

How the data were processed

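Total RNA from the infarcted hemisphere of 9 rats (3 Sham, 3 I/R, and 3 DHI, grouped by the sample labels) was labeled with Cy3 and hybridized to one-color Agilent rat arrays. For each array the authors deposited the spot intensity from Agilent Feature Extraction 10.7.1.1, which is background-corrected but unscaled. A deposited table of log2 values has the same distribution on every array (lowest Pearson's r with quantile-normalized values computed here 0.9995). Here, the log2 intensity of unflagged spots was averaged per probe, and the log2 of the array's 75th percentile was subtracted. Between 392 and 725 outlier spots per array and all control spots were left out. A probe was above background where at least 0.5 of its kept spots were marked so, and 23747 of 30367 probes were tested.

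One model (lmFit and eBayes of limma 3.58.1 in R 4.3.3) was fitted to the 9 arrays, leaving 6 residual degrees of freedom, with Benjamini-Hochberg adjustment over all probes tested. Calls needed an unadjusted p under 0.05 and a fold change over 1.5. The members are named except 1, which is not reported here by name and is kept in the counts and medians. Array values are given for called genes and for fixed ligand and receptor pairs. The members and gene lists were chosen with earlier results of these data known. Accessions of 50 members matched RefSeq, 2 with another symbol. Probe coordinates are those of the files (rn4). The number of arrays limits the precision. Only the model fit was tested on simulated data, for I/R versus Sham. Every simulated group had the spread of the Sham arrays, so the wider spread of the DHI arrays was not covered. The columns of sample values left out numbered 0. The alternatives changed the scaling (quantile, none, or the authors' table), the background correction (normexp with an offset of 50), the filter on dim probes, the model (only the groups compared, weighted arrays, or a replicate block), the test (the methods' t-test), the probes averaged per gene, or left out an array.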

Additional observations from a re-analysis of the deposited data

How the results depend on the processing

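In I/R versus Sham the count of 29 called genes stayed within 1.5 times under every setting tried except the restriction to probes above background on all arrays, which tests 26 of the 41 genes (17 called, with 0 lost among those tested). Leaving out 1 array gave 24 to 33 (31.7% to 48.6% of all probes). The count of 24 with an adjusted p under 0.05 fell to 0 without scaling and to 15 on probes above background on all arrays, and leaving out 1 array gave 0 to 32. In DHI versus I/R there were 22 calls, where 21.9% of all probes were called. The count became 12 with normexp background correction (20.9% of all probes) and 14 on probes above background on all arrays (21.6%). It was 9 in the model of only the groups compared (9.05%) and 3 with the methods' t-test (1.97%). When 1 array was left out it was 4 to 32 (3.95% to 45.2%). In DHI versus Sham there were 3 calls, where 3.58% of all probes were called. The count became 1 with quantile normalization (3.3% of all probes) and 1 with the authors' table (3.31%). It was 8 with normexp background correction (8 higher and 0 lower, 5.65%) and 5 without a filter on dim probes (4.63%). It was 12 with array weights (14.7%) and 1 with the methods' t-test (1.89%). When 1 array was left out it was 1 to 11 (1.45% to 10.6%). The median log2 fold change of the 41 genes with that correction was 0.96 in I/R versus Sham, it was -0.40 in DHI versus I/R, and the Ccr1 difference in DHI versus I/R turned to 0.24. Without DHI replicate 1 the median in DHI versus I/R was -2.18. With the replicate block 31 genes were called in I/R versus Sham, 25 in DHI versus I/R, and 5 in DHI versus Sham. The shares of all probes called were 43.8%, 26.6%, and 5.39%. Deviations from the group means had correlations from -0.34 to 0.48 between same-numbered arrays and from -0.53 to 0.46 between differently numbered ones. The ranges overlapped, so the numbers were not taken to pair the rats. Without scaling the median of all probes moved from -0.10 to 0.10 in I/R versus Sham, from 0.10 to -0.36 in DHI versus I/R, and from 0.02 to -0.25 in DHI versus Sham, and with normexp background correction to 0.23 in DHI versus I/R and 0.14 in DHI versus Sham. Without scaling, the median of the 41 genes in DHI versus I/R also moved down, from -1.32 to -1.78. The 22 lower and 1 higher calls in that setting therefore include the shift of all probes. The causes of these changes were not tested. Where a group was not well above background (Sham for Ccl20, Cxcl1, and Cxcl9, and I/R for Ccr8) only a bound on the difference was measured.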
